A study of Mus musculus with 11 samples.

Results

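The genes described here are 10 members of the AP-1 and immediate early gene group, namely Fos, Fosb, Fosl1, Fosl2, Jun, Junb, Jund, Atf3, Egr1 and Ier2. They were chosen by name, not by their values, out of 55536 genes in the files, and all 10 were among the 20307 genes that passed the filter on low counts. Their mRNA was measured in 11 libraries of epidermal cells that were freed from dorsal skin with thermolysin and sorted by flow cytometry. All mice were male CD4Cre R26-tdT animals on C57Bl6/N, in which Cre expressed from Cd4 switches on the red reporter tdTomato (tdT) for good, so tdT+ cells are those that expressed Cd4-driven Cre or descend from such cells. No treatment was given, and all groups carry both alleles. Cells positive for CD49f and CD34 were divided by the surface marker Sca-1 and by tdT. Sca-1neg cells, referred to as bulge cells, gave 3 tdT+ and 3 tdTneg libraries, and Sca-1+ cells gave 3 tdT+ and 2 tdTneg libraries. Each library held the cells of 2 pooled mice, aged 29 weeks for replicate 1 and 32 weeks for replicates 2 and 3, so age and replicate number cannot be told apart.

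Immediate early genes are switched on within minutes of a stimulus such as a growth factor, a wound or mechanical stress, without the need for new protein, by transcription factors already present in the cell. Fos and Jun proteins pair through leucine zippers to form AP-1, which binds DNA in front of genes for proliferation, matrix turnover and keratinocyte differentiation. The same genes respond when tissue is dissociated, and no library of undissociated skin was analysed here, so their level in intact skin and after isolation cannot be told apart.

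Depth was 17409131 to 46542177 counts per library. The markers fixed for the labelled cells were present. The 10 bulge markers, Krt15 and Lgr5 among them, summed to 11830 to 22600 normalized CPM, the count of a gene relative to the scaled library total, in bulge libraries and to 4559 to 7707 in Sca-1+ libraries, and Ly6a, the gene of Sca-1, was at 2.46 to 59.2 CPM in bulge and 153 to 294 CPM in Sca-1+ libraries. Cd34 mRNA was at 468 to 1130 CPM in bulge libraries and 320 to 383 CPM in tdTneg Sca-1+ libraries, but only at 22.4 to 35.7 CPM in tdT+ Sca-1+ libraries, although the gate was CD34+. Markers of other cells moved with the groups. All 8 endothelial markers had counts and summed to 1859 and 1993 CPM in the tdTneg Sca-1+ libraries against 5.29 to 488 CPM elsewhere, the 11 T cell markers to 144 to 1184 CPM in Sca-1+ and 21.0 to 75.9 CPM in bulge libraries, the 6 leukocyte markers to 102 to 559 and 7.22 to 124 CPM, and the 6 suprabasal markers to 3224 to 10640 and 507 to 4337 CPM. The 8 keratinocyte markers summed to 36150 to 40460 CPM in tdT+ Sca-1+ and 18130 to 28490 CPM in the other libraries, the 6 Langerhans cell markers to 883 and 988 in tdTneg Sca-1+ and 362 to 702 in the others, the 6 melanocyte markers to 101 to 161 in bulge and 17.2 to 61.4 in Sca-1+ libraries, and the 6 fibroblast markers to 26.9 to 478 over all, and no marker of these lists was at 0 in a whole group. In such bulk samples, fewer cells of a type and less RNA per cell cannot be told apart. One row outside the Ensembl genes took 0.0133 to 0.0307% of counts in 5 of the 6 tdT+ libraries and 0.000254 to 0.000489% in the 5 tdTneg libraries. The library labelled tdT+ bulge replicate 2 had 0.000205%, below all tdTneg libraries. What the row stands for is not given in the sources used here, but it was high in every other tdT+ library, so the tdT+ label of this library is in doubt, while its T cell marker sum, 75.9 CPM, was above those of the tdTneg bulge libraries. Its values are used under that label, and the counts of the 10 genes above or below 0 in the comparisons that use it are also given without it.

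Promoter sequence was at hand in RefSeq for 7 of the 10 genes (Fos, Fosb, Fosl2, Jun, Junb, Jund and Atf3). Shown are the 110 bases that end just before the start site, 5′ to 3′ on the gene's strand, for the 5 of these genes with a match of one of the searched motifs other than the GC box. The RefSeq start is the 5′ end of the counted gene for Fos and Jun and lies within 30 bases of it for Fosb and Junb, but for Atf3 it is the start of another transcript, 34706 bases inside the counted gene. Of the windows searched but not shown, the RefSeq start is 671 bases inside the counted gene for Fosl2 and 1210 bases before it for Jund. Capitals mark matches on either strand of the core of the cAMP response element (CRE), of a longer form of that element in Jun, of the TATA box and of the CCAAT box. The windows lie, on GRCm38.p6, at chr12:85473780-85473889 on the plus strand (Fos), chr7:19310046-19310155 on the minus strand (Fosb), chr4:95052223-95052332 on the minus strand (Jun), chr8:84978749-84978858 on the minus strand (Junb) and chr1:191183334-191183443 on the minus strand (Atf3).
Fos: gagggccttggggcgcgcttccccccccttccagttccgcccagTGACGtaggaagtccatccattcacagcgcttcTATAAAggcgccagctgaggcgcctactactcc
Fosb: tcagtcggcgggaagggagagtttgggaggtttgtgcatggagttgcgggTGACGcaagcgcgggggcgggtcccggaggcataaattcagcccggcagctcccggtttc
Jun: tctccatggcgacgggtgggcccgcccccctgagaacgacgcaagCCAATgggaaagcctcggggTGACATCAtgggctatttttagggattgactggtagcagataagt
Junb: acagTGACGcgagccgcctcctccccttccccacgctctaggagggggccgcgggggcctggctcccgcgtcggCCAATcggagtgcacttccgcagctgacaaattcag
Atf3: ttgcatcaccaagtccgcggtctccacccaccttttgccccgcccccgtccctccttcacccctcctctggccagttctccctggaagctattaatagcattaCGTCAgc

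Over the 250 bases before the start, the CRE core TGACG was in 4 of the 7 promoters (Fos, Fosb, Junb and Atf3), and in 17.8% of all 32851 promoters searched. In Fos it lay 66 to 62 and again 129 to 125 bases before the start, in Fosb 60 to 56, in Junb 106 to 102 and in Atf3, on the opposite strand, 7 to 3 bases before it. TGACATCA, which differs from the full CRE by a single base, was 45 to 38 bases before the start of Jun and in 2.93% of all promoters. TATAAA was 33 to 28 bases before the start of Fos and in 12.4% of all promoters, and CCAAT was in Jun and Junb and in 33.9%. The GC box GGGCGG was in Fos, Fosb, Fosl2, Jun and Atf3 and in 32.7% of all promoters. None of the 7 windows held the AP-1 site TGANTCA (6.75% of all promoters), the full CRE TGACGTCA (1.55%, which contains the core), the EGR site GCGTGGGCG (0.54%) or the CArG box of serum response factor (1.47%). These matches describe letters in a window, not binding.

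The genes lie, on GRCm38, at chr12:85473890-85477273 (Fos), chr7:19302696-19310051 (Fosb), chr19:5447547-5455946 (Fosl1), chr5:32135801-32157842 (Fosl2), chr4:95049034-95052222 (Jun), chr8:84974484-84978718 (Junb), chr8:70698949-70700616 (Jund), chr1:191170296-191218039 (Atf3), chr18:34859823-34864984 (Egr1) and chr8:84661331-84662852 (Ier2), and counts were taken over their exons. The spans of 5 of them share bases with a gene on the opposite strand, where reads may have been left out or moved without strand information. Fosl1 shares the longest stretch, 2767 bases with Ccdc85b, which had 688 to 3695 counts per library, so the level of Fosl1 may be affected. How many of these bases lie in counted exons was not measured. Jun shares 689 bases with Junos (2 to 165 counts) and Junb 351 bases with Prdx2 (1611 to 5301 counts), while the partners of Jund and Atf3 had 0 counts.

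Most of the group was among the most abundant mRNAs of every library. Ranked by CPM among the 20307 genes, Fos stood at place 9 to 32, Egr1, a zinc finger factor induced by serum response factor, at 12 to 37, Fosb at 14 to 49, Atf3, a stress-induced partner of Jun, at 18 to 56 and Jun at 22 to 64. Junb stood at place 57 to 121. The other 4 were lower, with Ier2, which encodes a small nuclear immediate early protein, at place 140 to 401, Fosl2 at 209 to 577, Jund at 279 to 1038 and Fosl1 at 2997 to 7103. Together the 10 genes took 0.940 to 1.85% of all counts, with the least in tdT+ bulge replicates 1 and 2 (0.940 and 1.04%) and the most in tdTneg bulge replicate 1. The level of a gene differed between its lowest and its highest library by 1.73-fold (Jun) to 3.04-fold (Fosl1).

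**Figure D1:**
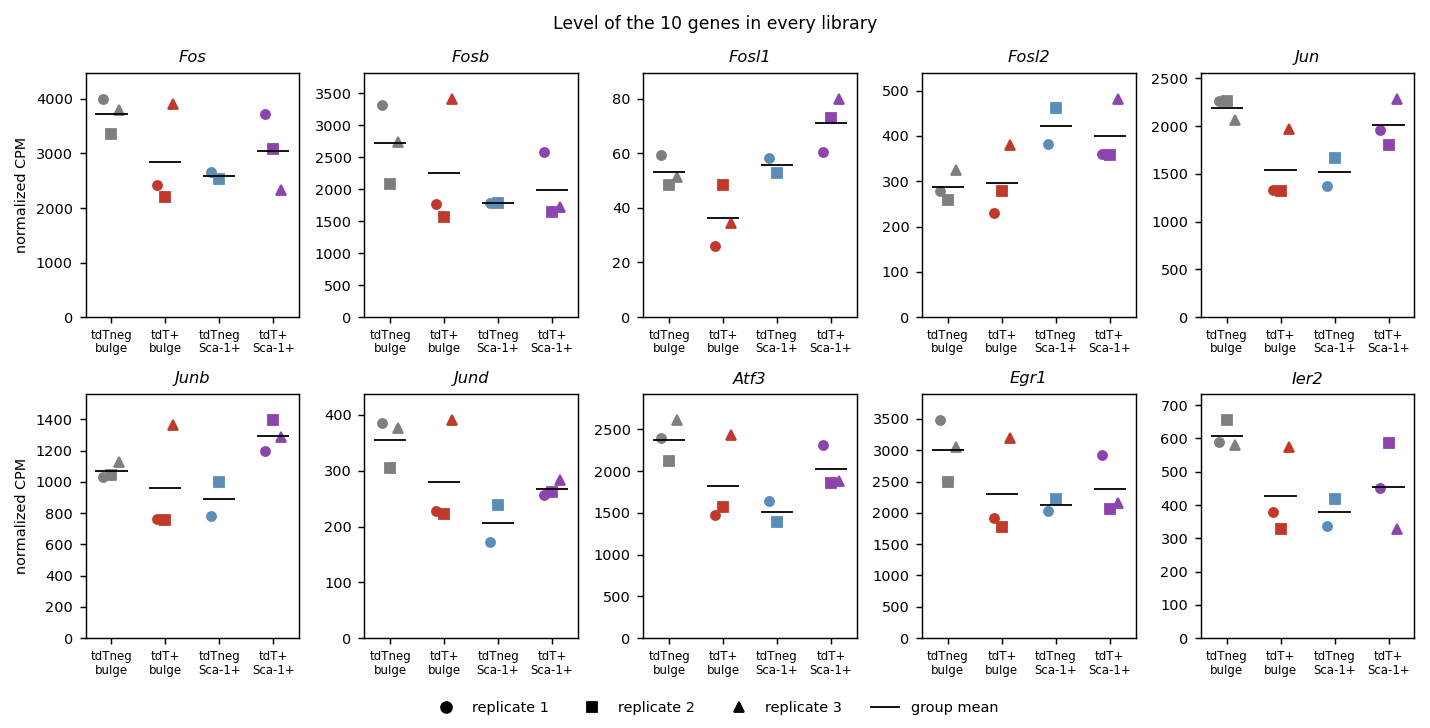
Normalized CPM (linear y axis from 0) of each of the 10 genes in the 11 libraries, by sorted group on the x axis, with the replicate number as the symbol and the group mean as a line. For 9 of the 10 genes tdT+ bulge replicates 1 and 2 lie below tdT+ bulge replicate 3, and Fosl1 is the exception.

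Per length, as RPKM (CPM per 1000 bases of exon), the order of the medians over the 11 libraries was Fos (1313), Atf3 (876), Jun (614), Egr1 (494), Junb (453), Ier2 (296), Fosb (287), Jund (157), Fosl2 (36.9) and Fosl1 (26.04). Neighbours in this order overlapped in their ranges over libraries at all but 2 places. Fosb (252 to 546 RPKM) lay above Jund (103 to 234 RPKM) in every library, and Jund lay above Fosl2 (23.8 to 49.7 RPKM). Fosl2 and Fosl1 (12.9 to 39.2 RPKM) overlapped.

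Within the Fos family, Fos took 73.0 to 79.6% of the summed RPKM in every library and Fosb, its close relative that also carries a transactivation domain, 16.02 to 24.1%. Fosl1 and Fosl2, which encode FRA-1 and FRA-2 and lack that domain, stayed at 0.750 to 2.90% and 1.26 to 3.67%. Within the Jun family, Jun took 42.5 to 52.7%, Junb, often a weaker activator than Jun, 32.3 to 45.7%, and Jund, which is expressed more steadily in many cells, 11.7 to 16.7%. Of these shares, only that of Jund did not overlap between the bulge and the Sca-1+ libraries. It was 13.6 to 16.7% in the 6 bulge libraries and 11.7 to 13.0% in the 5 Sca-1+ libraries. The share of Junb was 32.3 to 36.0% in tdTneg bulge and 37.4 to 45.7% in the other libraries, and that of Fosl2 was 1.26 to 1.59% in tdTneg bulge and 1.73 to 3.67% in the others, both without overlap. The shares of Fos, Fosb, Fosl1, Jun and Jund overlapped between tdTneg bulge and the other libraries. No test was run on these shares, and whether such gaps exceed the spread between libraries was not tested.

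**Figure D2:**
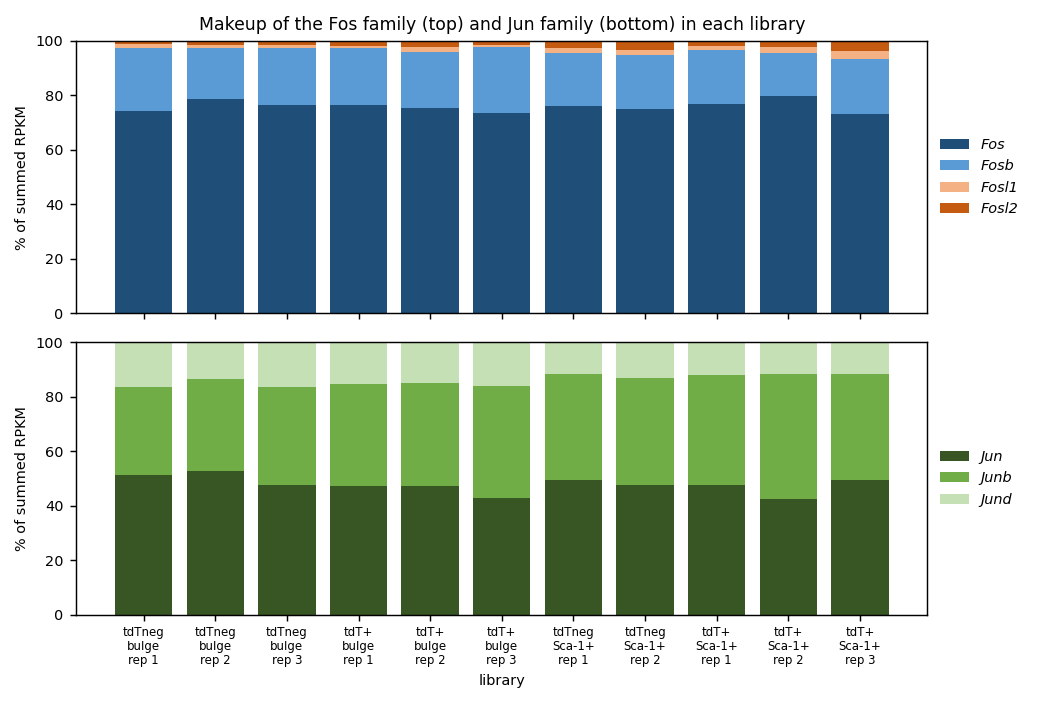
Share of each Fos family gene (top) and Jun family gene (bottom) in the summed RPKM of its family (y axis, percent, from 0 to 100) in each of the 11 libraries (x axis). Fos makes up 73.0 to 79.6% of its family. The Jund share is 11.7 to 13.0% in Sca-1+ and 13.6 to 16.7% in bulge libraries, and this difference was not tested.

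The first comparison asked how Sca-1+ cells differed from bulge cells, with the difference taken inside tdT+ and inside tdTneg cells and then averaged. None of the 10 genes was called at an adjusted p under 0.05 (edgeR quasi-likelihood test, Benjamini-Hochberg) together with a change over 1 on the log2 scale, whereas 11.6% of all genes tested were. Without the size limit, 1 of 10 passed, Fosl1, against 19.3% of all genes. All 10 genes had a 95% interval of the log2 fold change inside −1 to 1, as did 40.0% of all genes. The values ran from −0.43 to 0.52 with a median of −0.22, 7 of 10 were below 0, and the median of all genes was −0.09. Without the library labelled tdT+ bulge replicate 2, 7 of 10 were below 0 with a median of −0.30.

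Fosl1 was at 48.3 to 59.4 CPM in tdTneg bulge, and at 26.2, 48.3 and 34.5 CPM in tdT+ bulge replicates 1 to 3. In Sca-1+ cells it was at 58.1 and 52.9 CPM in the tdTneg libraries and at 60.4, 72.9 and 79.7 CPM in the tdT+ libraries. The tdT+ Sca-1+ libraries were thus all above every bulge library, and the tdTneg libraries of both populations overlapped. The log2 fold change was 0.52 (SE 0.16, adjusted p = 0.0454) as the mean, 0.97 (SE 0.21, adjusted p = 0.0169) within tdT+ cells and 0.07 (SE 0.24, adjusted p = 0.908) within tdTneg cells. With the replicate number as a block, the adjusted p of the mean was 0.0620, and it stayed under 0.05 in 2 of the 11 fits that left out 1 library (without the library labelled tdT+ bulge replicate 2 or tdT+ Sca-1+ replicate 1), with a range over all alternatives of 0.00963 to 0.185. Within tdT+ cells it rose above 0.05 without tdT+ Sca-1+ replicate 2 (0.0579) or 3 (0.0584) and when only the groups compared were fitted (0.0568), with a range of 0.000811 to 0.0584. The value within tdT+ cells passed the size limit without the library labelled tdT+ bulge replicate 2 (1.22, adjusted p = 0.00536) and without tdT+ Sca-1+ replicate 1 (1.07, adjusted p = 0.0270).

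Fosl2 was at 279, 259 and 325 CPM in tdTneg bulge and at 230, 278 and 379 CPM in tdT+ bulge. It was at 383 and 462 CPM in tdTneg Sca-1+ and at 360, 357 and 481 CPM in tdT+ Sca-1+. Only tdT+ bulge replicate 3 among the bulge libraries reached into the Sca-1+ range. The log2 fold change of the mean was 0.49 (SE 0.16, adjusted p = 0.0502). It was 0.43 within tdT+ and 0.55 within tdTneg cells. With the replicate block the mean was 0.57 (adjusted p = 0.0102), and with DESeq2 0.52 (adjusted p = 0.00498), and over all alternatives the adjusted p ranged from 0.00498 to 0.177.

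Jund had the lowest mean difference, −0.43 (SE 0.17, adjusted p = 0.111). It was at 386, 304 and 376 CPM in tdTneg bulge and at 228, 222 and 390 CPM in tdT+ bulge. The tdTneg Sca-1+ libraries, at 172 and 239 CPM, and the tdT+ Sca-1+ libraries, at 257, 262 and 283 CPM, lay between or below these. The remaining 7 genes had mean differences from −0.39 (Fosb) to 0.08 (Junb), with adjusted p of 0.290 to 0.787.

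The population difference was also taken within tdT+ and within tdTneg cells. It had opposite signs for 6 of 10 genes, but the test of the difference between both, given with the tdT effects, called none of them (lowest adjusted p = 0.263, edgeR). Within tdT+ cells 8 of 10 genes were above 0 with a median of 0.12, 0 of 10 were called against 8.45% of all genes, and Fosl1 alone passed on the adjusted p, against 12.3% of all genes. The count above 0 turned on single tdT+ bulge libraries. It was 6 of 10 (median 0.0133) without replicate 1, 5 of 10 (median −0.00516) without the library labelled replicate 2, and 10 of 10 (median 0.40) without replicate 3, and 6 of 10 (median 0.07) without tdT+ Sca-1+ replicate 1. Fosl1 was also the one gene of the 10 whose libraries did not overlap between the populations, against 30.4% of all genes. Within tdTneg cells 8 of 10 were below 0 with a median of −0.53, and 0 of 10 were called against 4.74% of all genes. At an unadjusted p under 0.05, 5 of 10 passed (Fosl2, Jun, Jund, Atf3 and Ier2), against 21.1% of all genes, and the lowest adjusted p was 0.117 (Jund). With DESeq2 the adjusted p was 0.0455 for Jund and 0.0465 for Fosl2, and without tdT+ bulge replicate 3 it was 0.0309 for Jund, in each case with a change under the size limit. Over all alternatives that of Jund ranged from 0.0309 to 0.603. The 3 bulge and 2 Sca-1+ libraries of tdTneg cells did not overlap for 9 of 10 genes, all but Fosl1, where 46.3% of all genes did not overlap either. Of these 9, 8 were lower in Sca-1+ cells and Fosl2 was higher.

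By replicate number, the differences within tdT+ cells did not hold one direction. All 10 genes were higher in Sca-1+ than in bulge cells in replicate 1 (median log2 difference 0.62) and in replicate 2 (0.40), and 7 of 10 were lower in replicate 3 (median −0.42). Within tdTneg cells, 9 of 10 were lower in Sca-1+ cells in replicate 1 (median −0.65) and 8 of 10 in replicate 2 (−0.28). The tdTneg Sca-1+ libraries are those with the high endothelial marker sum, and the part of such cells in these values was not tested.

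The second comparison asked how tdT+ bulge cells differed from tdTneg bulge cells. The 10 genes were mostly lower in tdT+ cells, but none of these differences passed the test. The log2 fold change was below 0 for 9 of 10 genes, with a median of −0.38 against −0.03 over all genes. None of the 10 was called (0.00985% of all genes were), and the lowest adjusted p was 0.522. At an unadjusted p under 0.05, 2 of 10 passed (Fosl1 and Jun), against 8.42% of all genes. For 8 of 10 the 95% interval lay inside −1 to 1, as it did for 41.4% of all genes.

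Fos was at 3993, 3357 and 3801 CPM in tdTneg bulge replicates 1 to 3, and at 2429, 2201 and 3905 CPM in tdT+ bulge. Replicates 1 and 2 of tdT+ bulge were below all 3 tdTneg libraries, and replicate 3 was among them. The difference was −0.39 (SE 0.26, adjusted p = 0.734). Jun, the main partner of Fos in AP-1, was at 2263, 2258 and 2063 CPM in tdTneg bulge, against 1334, 1322 and 1968 CPM in tdT+ bulge. All 3 tdT+ libraries were below the tdTneg libraries, though replicate 3 only just so, and the difference was −0.51 (SE 0.21, adjusted p = 0.553).

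Egr1 was at 3475, 2485 and 3046 CPM in tdTneg and at 1911, 1780 and 3197 CPM in tdT+ bulge. Atf3 was at 2393, 2117 and 2608 CPM in tdTneg and at 1475, 1567 and 2436 CPM in tdT+ bulge. The same pair of tdT+ libraries was low for both genes and replicate 3 was within the tdTneg range. Ier2 was at 588, 654 and 579 CPM in tdTneg and at 380, 327 and 575 CPM in tdT+ bulge, which did not overlap. Jun and Fosl1 too had all 3 tdT+ bulge libraries below the tdTneg bulge libraries, 3 of 10 genes against 10.9% of all genes, and for Fosl1 the nearest libraries were both at 48.3 CPM.

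The low tdT+ libraries were the ones labelled replicate 1 and replicate 2. There the 10 genes lay on average 0.43 and 0.37 below their own mean over the 11 libraries on the log2 scale, with 0 of 10 above it, and in tdT+ bulge replicate 3 they lay 0.27 above it with 9 of 10 above. Those libraries also had the most genes above 1 CPM, 15544 and 15494, followed by tdTneg bulge replicate 2 with 15197, against 13607 to 14478 in the other 8. The keratinocyte markers summed to 18130 and 20470 CPM in them, below the 23820 CPM of replicate 3 and the 24230 to 25010 CPM of tdTneg bulge libraries, and the leukocyte markers to 124 CPM in both, against 58.6 and 7.22 to 44.5 CPM. Mitochondrial genes took 4.20 and 3.56% of their counts, against 2.57% in replicate 3 and 2.78 to 3.70% in tdTneg bulge. The endothelial markers summed to 62.1 and 488 CPM in them, to 5.29 CPM in replicate 3 and to 38.2 to 118 CPM in tdTneg bulge. The suprabasal markers summed to 2526 and 4337 CPM in them, against 1729 CPM in replicate 3 and 507 to 1750 CPM in tdTneg bulge. Over all 3 tdT+ bulge libraries the T cell markers summed to 42.9 to 75.9 CPM and the Langerhans cell markers to 446 to 702 CPM, against 21.0 to 28.9 and 362 to 429 CPM in tdTneg bulge. The part of these differences between libraries in the levels of the 10 genes was not tested. By replicate number, tdT+ was below tdTneg for 10 of 10 genes in replicate 1 (median −0.74), for 9 of 10 in replicate 2 (−0.46) and for 4 of 10 in replicate 3 (0.05). Without the library labelled tdT+ bulge replicate 2, the median was −0.23 with 9 of 10 below 0 and a lowest adjusted p of 0.348. Without replicate 3 it was −0.67 with 10 of 10 below 0 and a lowest adjusted p of 0.214, and over all alternatives the lowest adjusted p was 0.214 to 0.977.

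The third comparison asked the same of Sca-1+ cells, where no difference passed the test. The log2 fold change of tdT+ against tdTneg was above 0 for 9 of 10 genes, all but Fosl2, with a median of 0.31 against 0.04 over all genes. None was called, against 2.31% of all genes, and none passed at an unadjusted p under 0.05, against 14.6% of all genes. The lowest adjusted p was 0.412. The count above 0 was 7 of 10 without tdT+ Sca-1+ replicate 1, 8 of 10 without tdT+ Sca-1+ replicate 2 and 10 of 10 without tdTneg Sca-1+ replicate 2. The 3 tdT+ and 2 tdTneg libraries did not overlap for 5 of 10 genes, against 33.0% of all genes. The groups also differed without overlap in the summed markers of keratinocytes (36150 to 40460 CPM in tdT+ against 26090 and 28490 CPM in tdTneg), T cells (437 to 1184 against 144 and 157 CPM), leukocytes (304 to 559 against 102 and 235 CPM), Langerhans cells (482 to 686 against 883 and 988 CPM), melanocytes (17.2 to 28.2 against 42.1 and 61.4 CPM), endothelial cells (35.3 to 70.1 against 1859 and 1993 CPM) and suprabasal cells (7559 to 10640 against 3224 and 7338 CPM), and the part of these cells in the values was not tested.

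Junb had the largest of these differences, 0.54 (SE 0.27, adjusted p = 0.412). It was at 1196, 1393 and 1289 CPM in tdT+ and at 781 and 1000 CPM in tdTneg Sca-1+ libraries, and all tdT+ values were higher. Jun was at 1958, 1799 and 2280 CPM in tdT+ and at 1371 and 1667 CPM in tdTneg libraries, again without overlap. Fos was at 3724, 3087 and 2327 CPM in tdT+ and at 2660 and 2523 CPM in tdTneg libraries. It spread more between the tdT+ replicates than it differed between the groups, and the fitted difference was 0.23 (SE 0.30, adjusted p = 0.816). Fosb ranged from 1650 to 2583 CPM in tdT+ and from 1785 to 1791 CPM in tdTneg libraries, and Egr1 from 2068 to 2931 and from 2025 to 2216 CPM.

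The difference between both tdT effects, in Sca-1+ minus in bulge cells, was above 0 for 9 of 10 genes with a median of 0.71, against 0.05 over all genes. None was called, where 0.389% of all genes were. At an unadjusted p under 0.05, 3 of 10 passed, against 12.4% of all genes. They were Jun with 0.92 (SE 0.31, adjusted p = 0.263), Fosl1 with 0.90 (SE 0.32, adjusted p = 0.285) and Atf3 with 0.79 (SE 0.34, adjusted p = 0.387). Fosl2 was the one gene below 0, at −0.12 (SE 0.31, adjusted p = 0.923). The lowest adjusted p was 0.0737 with DESeq2 (Jun), 0.0809 without tdT+ bulge replicate 3 (Jun) and 0.140 without the library labelled tdT+ bulge replicate 2 (Fosl1), where 9 of 10 genes were still above 0 with a median of 0.56, and reached 0.595 without tdTneg Sca-1+ replicate 2.

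**Figure D3:**
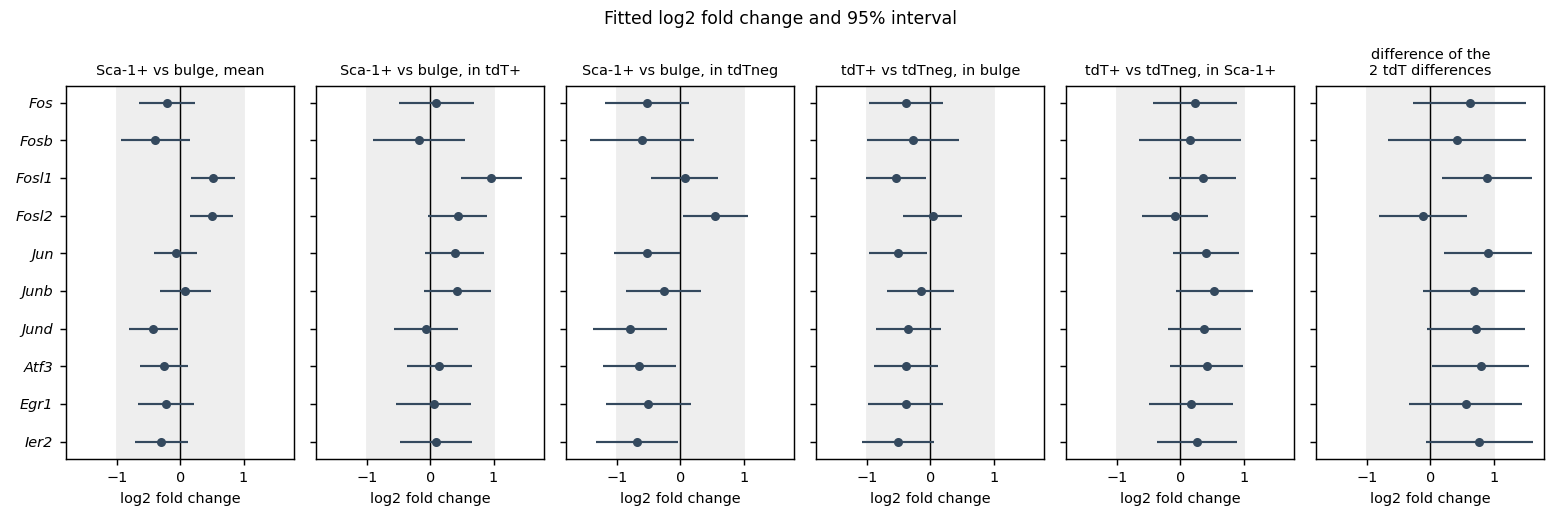
Fitted log2 fold change (points) and its 95% interval (lines) on the x axis for the 10 genes (y axis) in 5 comparisons and in the difference of the tdT effects, with the band from −1 to 1 in grey. All 10 intervals lie within the band for the mean population difference, 9 of 10 points are below 0 for tdT in bulge and 9 of 10 above 0 for tdT in Sca-1+ cells.

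The spread between replicates was set beside that of other genes. The within-group SD of log2 CPM was 0.22 (Jun) to 0.41 (Fosb), with a median of 0.29 over the 10 genes against 0.49 over all genes tested. All 10 were below the median of all genes. Low counts widen that median, however, and beside the 200 genes nearest in level only Jun (0.22 against 0.26) and Atf3 (0.254 against 0.255) were below the median. Fosb was the widest against genes of its level, at 0.41 against 0.25. For 9 of 10 genes the highest deviation from a group mean was in tdT+ bulge replicate 3, from 0.38 (Jun) to 0.69 (Fosb), and for Fosl1 it was in tdT+ bulge replicate 2 (0.46). Without tdT+ bulge replicate 3 the median SD of the 10 genes was 0.21.

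**Figure D4:**
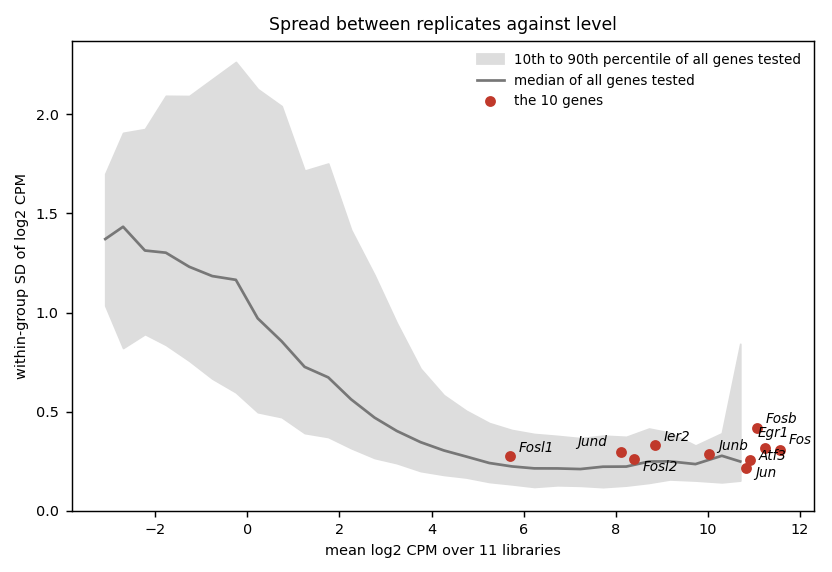
Within-group SD of log2 CPM (y axis) against the mean log2 CPM over the 11 libraries (x axis) for the 10 genes (red points), with the median (line) and the 10th to 90th percentile (grey band) of all genes tested in level bins of 0.5. The 10 genes lie between 0.22 and 0.41, near or above the line, which ends at the highest level that holds enough genes for a bin, below the level of 5 of them.

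Over the 11 libraries, which share pools of mice and sorted groups, 8 of the genes had r above 0.4 with one another, while Fosl1 and Fosl2 had lower medians with them, though 3 of their single values were also above 0.4 (Fosl1 with Jun and with Junb, both 0.42, and Fosl2 with Junb, 0.50). The 8 are set apart here by these same correlations, so the values are a description. Pearson's r of log2 CPM had a median of 0.61 over the 45 pairs, and 37 of them were above 0. Among Fos, Fosb, Jun, Junb, Jund, Atf3, Egr1 and Ier2 the median was 0.74, from 0.41 (Fosb with Junb) to 0.97 (Fosb with Egr1). Fosl1 and Fosl2 had medians of 0.01 and −0.07 with these 8, and r = 0.57 with each other. After the group means were taken out, the 8 still had a median of 0.65, from 0.35 (Jun with Ier2) to 0.99 (Fosb with Egr1). All 8 deviated in the same direction only in tdT+ bulge libraries. There they lay below the group mean in replicates 1 and 2 and above it in replicate 3. In the other groups the signs were mixed, such as −0.36 for Fos and 0.19 for Jun in tdT+ Sca-1+ replicate 3. The median without tdT+ bulge replicate 3 was not computed. Fosl2 did not stand apart in these deviations, with r = 0.83 with Jund, 0.80 with Jun and 0.76 with Junb, and 0.13 to 0.55 with the other 5.

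**Figure D5:**
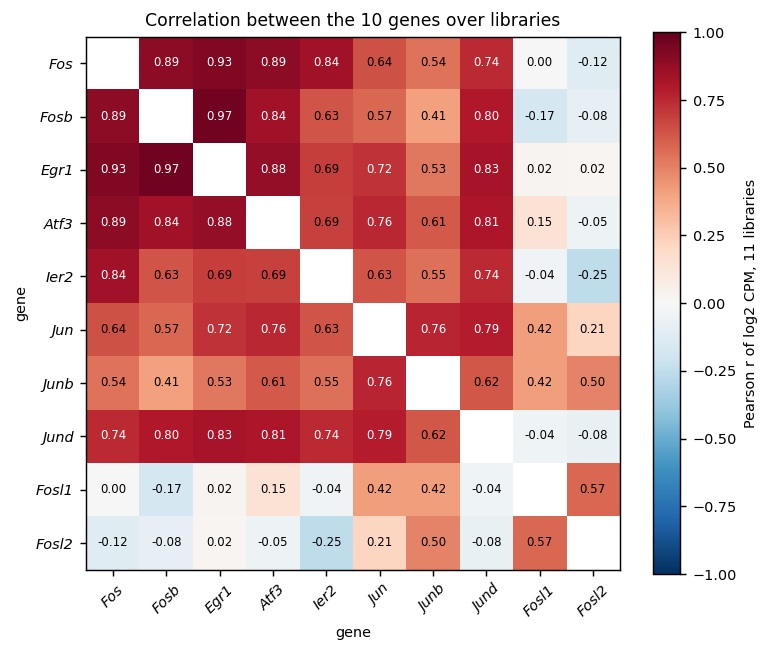
Pearson's r of log2 CPM over the 11 libraries for each pair of the 10 genes (both axes), with colour from −1 (blue) to 1 (red). The block of 8 genes at the upper left has r from 0.41 to 0.97, and Fosl1 and Fosl2 have r from −0.25 to 0.50 with it.

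Outside the group, the gene most like each member was sought among all genes tested by the same r over the 11 libraries. It was Fermt1 for Fos (0.92), Atf7ip for Fosb (0.91), Trim29 for Jun (0.95), Prcc for Junb (0.98), Msi2 for Jund (0.94), Grhl2 for Atf3 (0.95), Agap3 for Egr1 (0.93), Mettl1 for Ier2 (0.96), Jmjd6 for Fosl1 (0.94) and Midn for Fosl2 (0.95). The next in this order were Armh3 and Ppcdc for Fos, Calcoco1 and Mlh3 for Fosb, Fbxl6 and Rpia for Jun, Gm14539 and Poldip3 for Junb, H1fx and Klf4 for Jund, Ptges3l and Klf4 for Atf3, Map2k7 and Pbx2 for Egr1, Anapc11 and Ntpcr for Ier2, Kcmf1 and Ybx2 for Fosl1, and Ptpn1 and Bahd1 for Fosl2, all with r of 0.89 to 0.95. Such values are the highest of 20307 genes over few libraries. Of these genes, Klf4, itself an early response factor, and Map2k7, a kinase in front of JNK, were on the lists described next.

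Genes that belong to the same response were taken as lists and counted in the population mean, where 4.77% of all genes rose and 6.79% fell in Sca-1+ cells. Of 13 other early transcription factors, 1 rose and none fell, with a median log2 fold change of 0.07 (all genes −0.09). It was Bhlhe40, a repressor of the basic helix-loop-helix family, at 96.7 to 228 CPM in bulge and 424 to 652 CPM in Sca-1+ libraries (log2 fold change 1.71, SE 0.15, adjusted p = 0.000139). Without tdT+ bulge replicate 2 or 3, 2 genes of this list rose. The most abundant of the list, Nr4a1, an orphan nuclear receptor, and Klf4, had values of 0.07 and −0.39 (adjusted p = 0.836 and 0.189).

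Of 21 other early response genes, 4 rose and 1 fell, with a median of 0.21. Arc rose most, from 10.3 to 55.7 CPM in bulge to 206 to 468 CPM in Sca-1+ libraries (3.19, SE 0.42, adjusted p = 0.000850). Plk2 (2.01), Gadd45a (1.34) and Ier5 (1.32), named after their values were seen, rose too. Ccn2, which encodes the matricellular protein CTGF, fell, from 356 to 608 CPM in bulge to 178 and 317 CPM in tdTneg and 28.0 to 69.8 CPM in tdT+ Sca-1+ libraries (−2.21, SE 0.28, adjusted p = 0.000797). Ccn1 and Btg2, the most abundant of the list, had values of −0.68 and −0.41 and were not called. Without tdTneg Sca-1+ replicate 2, 2 genes of this list fell.

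Of 19 feedback inhibitors, among them MAP kinase phosphatases (Dusp genes), Sprouty and Socs proteins, regulators of NF-κB and proteins that destroy early mRNAs, 4 rose and none fell, with a median of 0.14. Dusp2 rose most (2.47, SE 0.47, adjusted p = 0.00554), from 1.21 to 3.96 CPM in bulge to 3.86 to 20.4 CPM in Sca-1+ libraries, which overlapped slightly. Tnfaip3 (2.16), Dusp5 (1.21) and Nfkbiz (1.07), named after their values were seen, rose too, and Tnfaip3 and Nfkbiz act on NF-κB signalling. Zfp36, which destroys early mRNAs, and Dusp1, the most abundant of the list, had values of 0.14 and 0.47 (adjusted p = 0.573 and 0.0569). Leaving out single libraries gave 3 or 4 rises.

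Of 25 other genes of the basic leucine zipper family, to which Fos and Jun belong, 1 rose and 1 fell, with a median of 0.02. Batf, best known from lymphocytes, rose from 0.0244 to 0.449 CPM in bulge to 0.826 to 2.01 CPM in Sca-1+ libraries (2.75, SE 0.83, adjusted p = 0.0432), where the T cell and leukocyte markers were also higher. Their part in it was not tested. Bach2, a repressor that pairs with small Maf proteins, fell (−1.14, SE 0.25, adjusted p = 0.0128). With 1 library left out at a time, a gene of the list rose in 3 of 11 fits (those without replicate 2 of tdT+ bulge, of tdTneg bulge and of tdT+ Sca-1+), 0 to 3 fell, and none was called without tdTneg Sca-1+ replicate 1. The most abundant, Nfe2l1 and Atf4, had values of 0.28 and 0.00. Of 26 genes of the MAP kinase and serum response factor inputs and of 15 heat shock genes, none was called in either direction, with medians of 0.26 and 0.02. At an unadjusted p under 0.05, 14 of the 26 and 4 of the 15 passed, against 34.4% of all genes, and DESeq2 called 1 and 0. Among the inputs, 3 rose without the library labelled tdT+ bulge replicate 2, 2 rose without tdT+ Sca-1+ replicate 1, 1 fell without tdT+ bulge replicate 3, and no more than 1 rose in the fits without another library. Mapk3, a MAP kinase and among the most abundant inputs, had a value of −0.36. Hsp90ab1 and Dnajb1, the most abundant heat shock genes, had values of 0.31 and 0.24. Within tdTneg cells alone, 3 of the 26 inputs rose, where 3.29% of all genes did, and no heat shock gene was called.

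Genes listed as AP-1 targets in skin had the highest median of these lists, and whether AP-1 drove them here was not tested. Of 28 tested, 11 rose and none fell, 27 had a value above 0, and the median log2 fold change was 1.62. Mmp3, a matrix protease, rose most, from 0.661 to 6.12 CPM in bulge to 18.7 to 81.6 CPM in Sca-1+ libraries (4.10, SE 0.71, adjusted p = 0.00358). Among the others that rose, named after their values were seen, were the cornified envelope genes Sprr1a and Sprr1b, the keratins Krt6b and Krt16, the protease genes Mmp10 and Plau, Plaur, which encodes the receptor of the Plau protein, the EGF receptor ligand Areg, and S100a9. Krt17, the most abundant, was the gene below 0 (−0.98, adjusted p = 0.0365) and Cd44, the next, was not called (0.24). Within tdT+ cells 4 of the 28 rose (2.91% of all genes did), Krt17 fell (−1.43, adjusted p = 0.0331) and the median was 0.86, and within tdTneg cells 7 rose (3.29% of all genes), none fell and the median was 2.32. With 1 library left out at a time, these rises numbered 1 within tdT+ cells without tdT+ bulge replicate 1 or tdT+ Sca-1+ replicate 2 and 2 without tdT+ bulge replicate 3, and within tdTneg cells 1 without tdTneg bulge replicate 3 or tdTneg Sca-1+ replicate 1, 2 without tdTneg Sca-1+ replicate 2, 4 without tdTneg bulge replicate 1 or 2 and 11 without tdT+ bulge replicate 3. The fall of Krt17 was lost in the fits without tdT+ bulge replicate 1 or 3 and without any one of the tdT+ Sca-1+ libraries. In the population mean 5 of the 6 suprabasal, 5 of the 6 leukocyte, 10 of the 11 T cell and 5 of the 6 Langerhans cell markers rose as well. The value within tdTneg cells rests on the libraries with the high endothelial marker sum. The part of such cells in these values was not tested. The count of 11 fell to 5 without tdT+ Sca-1+ replicate 2, without tdTneg Sca-1+ replicate 1 and without tdTneg Sca-1+ replicate 2 in turn.

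In tdT+ against tdTneg bulge cells and in the difference of the tdT effects, none of the 147 genes of these 7 lists was called. At an unadjusted p under 0.05, 18 of the 147 passed in bulge cells, against 8.42% of all genes, and 21 in the difference, against 12.4%. With DESeq2, 1 gene of the AP-1 target list rose in bulge cells, and 7 genes of the lists were lower in the difference. In the difference, 5 genes were called without tdT+ bulge replicate 3, 1 without the library labelled tdT+ bulge replicate 2 and 1 without tdT+ Sca-1+ replicate 2. In tdT+ against tdTneg Sca-1+ cells, where 2.06% of all genes fell, 5 genes of the lists fell and none rose. They were Ccn2 (−2.50), the leucine zipper factor Cebpd (−1.39), Klf2 (−1.38), and among the inputs Elk3 (−3.22), a partner of serum response factor, and the kinase gene Rps6ka5 (−1.09). Klf2 and Elk3 were high in the tdTneg Sca-1+ libraries alone, at 108 and 120 CPM against 33.1 to 61.1 elsewhere for Klf2 and at 78.3 and 91.3 CPM against 6.97 to 29.7 for Elk3, the libraries with the high endothelial marker sum. The part of such cells in these values was not tested. Each of the 5 calls was lost without one or more of the 5 Sca-1+ libraries, tdTneg replicate 2 in every case.

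The listed AP-1 targets are set beside the 10 members between tdT+ and tdTneg cells as a description, since the difference between the lists was not tested. In Sca-1+ cells their median difference was −0.48 with 7 of 28 above 0, beside 0.31 and 9 of 10 for the members. In the difference of the tdT effects it was −1.38 with 3 of 28 above 0, beside 0.71 and 9 of 10. In both, all 8 endothelial markers (medians −5.20 and −6.55) and all 6 Langerhans cell markers (−0.75 and −2.67) were below 0, and the part of such cells in these values was not tested. None of the 28 was called in either, but 2 were lower in Sca-1+ cells without the library labelled tdT+ bulge replicate 2 or 3, and 2 in the difference without tdT+ bulge replicate 3. In bulge cells it was 0.15 with 16 of 28 above 0, beside −0.38 and 1 of 10.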

How the data were processed

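Per the labels, libraries were made with the TruSeq RNA v2 kit from RNA of sorted cells. According to the methods of the study, the authors aligned reads to mm10 with STAR and deposited whole-number counts per gene of Ensembl release 96 made with featureCounts, with no normalization. The strand setting is not given in the sources used here. The 1 row outside the Ensembl genes (0.000205 to 0.0307% of counts) stayed out of totals and tests. Positions and exon lengths are from the matching annotation on GRCm38, which held all 55536 genes, and promoters from RefSeq on GRCm38.p6.

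Groups follow the labels. Counts were scaled by TMM in edgeR 4.0.16 (R 4.3.3), and 20307 genes passed filterByExpr. Quasi-likelihood tests used 1 mean per group over all 11 libraries, with Benjamini-Hochberg adjustment over all genes, and a gene was called when its adjusted p was under 0.05 and its log2 fold change beyond 1 in either direction. Correlations and spread used log2 CPM with a prior count of 2. Tests were checked on simulated counts. Alternatives were DESeq2 1.42.0, RLE scaling, 2 other filters, no fold limit, a replicate block, only the groups compared, and leaving out each library. The methods of the study give the replicates as pools of 2 mice, so libraries with the same number were read as 1 pool. Their deviations from group means correlated at a median of 0.08 (−0.41 to 0.59, 15 pairs), against −0.02 for 30 other pairs. Where mice were not shared, p-values measure the spread between these libraries.

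All 10 genes were named in every comparison. Of each list, the genes named were the 2 most abundant and, among those called, the one that rose most and the one that fell most, and for each member the 3 other genes of highest correlation. Other called genes of the lists were named after their values were seen. Single results for 2 genes of the lists are not reported here. The members, lists and tests were chosen with earlier results of these data known.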

Additional observations from a re-analysis of the deposited data

Results flagged for a closer look

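The row outside the Ensembl genes belonged to no comparison and differed between tdT+ and tdTneg libraries. It reached 0.0307% of counts in tdT+ libraries, above the highest of the tdTneg libraries (0.000489%). In 5 of the 6 tdT+ libraries it was at 0.0133% or more, and in the library labelled tdT+ bulge replicate 2 it was at 0.000205%, below the lowest of the tdTneg libraries (0.000254%). Groups of 2 or 3 libraries were too small for a test of single outlying libraries.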

How the results depend on the processing

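No member was called under DESeq2, RLE scaling, either filter or the replicate block, each giving 0 in all 6 comparisons, or with only the groups compared in the 4 comparisons between single groups (the other 2 use all groups). Without the fold limit, 1 member passed for the population mean and 1 within tdT+ cells (Fosl1). Leaving out single libraries gave 0 to 1 called members within tdT+ cells (Fosl1, without the library labelled tdT+ bulge replicate 2 or tdT+ Sca-1+ replicate 1) and 0 elsewhere. The median spread of the members was 0.21 to 0.31, lowest without tdT+ bulge replicate 3, an alternative chosen after seeing the data. The prior count of 0.5 left spread and correlation within replicate error.

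Signs of small differences turned with single libraries. Within tdT+ cells (Sca-1+ against bulge) the ranges were −0.0717 to 0.40 for Fos, −0.41 to 0.25 for Fosb, −0.12 to 0.37 for Egr1, −0.16 to 0.36 for Ier2 and −0.21 to 0.25 for Jund, and Egr1 was also −0.000153 when genes with any count were kept and −0.00433 when each library had to reach 10 counts. Within tdTneg cells Fosl1 ranged from −0.0127 to 0.18, and in the population mean Jun ranged from −0.12 to 0.0337. For tdT+ against tdTneg, Fosl2 ranged from −0.18 to 0.19 in bulge cells and from −0.24 to 0.0168 in Sca-1+ cells, where Fosb ranged from −0.0833 to 0.24, Egr1 from −0.00598 to 0.24 and Ier2 from −0.0121 to 0.45. The difference of the tdT effects ranged from −0.27 to 0.10 for Fosl2. These turns were in values that had not passed a test, and their cause was not tested.

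With the replicate block, the adjusted p of 2 members crossed 0.05 for the population mean, to 0.0620 for Fosl1 and 0.0102 for Fosl2, and no call changed. The median of all genes moved by −0.35 in the population mean when genes with any count were kept and by −0.12 in the difference of the tdT effects with RLE scaling, where 9 of 10 members stayed above 0. With 2 or 3 libraries a group, a p above the threshold does not show equal levels.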
